A study of Mus musculus with 8 samples.

Results

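Thrombospondins, periostin, tenascins, SPARC and matrix Gla protein are secreted proteins of the dermal matrix. Expression of their 10 genes was compared between cultured skin fibroblasts from control mice and from mice with fibroblast *Tgfb1* deletion (TGFβ1FKO). The genes *Thbs1*, *Thbs2*, *Thbs3*, *Thbs4*, *Comp*, *Postn*, *Tnc*, *Tnxb*, *Sparc* and *Mgp* were taken by symbol as the matricellular genes outside the CCN family. All 10 were found among the 15111 genes measured. RNA was sequenced from 4 control and 4 TGFβ1FKO libraries of primary mouse dermal fibroblasts. Every library came from adult, tamoxifen-fed mice with both *Tgfb1* alleles floxed (Tgfb1fl/fl), and every culture was kept for 72 h on fibronectin in serum replacement medium. TGFβ1FKO mice carried Col1a2-CreERT in addition, a tamoxifen-inducible Cre recombinase driven by the collagen type I alpha 2 promoter in fibroblasts and other cells that use it. Controls had no Cre, so the presence of Cre and the loss of *Tgfb1* cannot be told apart. No label ties a library to a single mouse, and the p-values therefore measure the spread between these libraries only, which may in part be technical.

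Matricellular proteins are secreted into the extracellular matrix, where they bind collagens, growth factors and cell surface receptors without forming the main load-bearing fibres. They are known for high expression during skin repair and scarring, and several are textbook targets of TGFβ in fibroblasts. Thrombospondin 1 is itself known as an activator of latent TGFβ.

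The libraries held between 16988998 and 23071528 reads assigned to genes. Reads of *Tgfb1*, the deleted gene, averaged 1374 ± 85.4 normalised counts in controls (SD, n = 4) and 277.3 ± 42.5 in TGFβ1FKO (SD, n = 4), or 20.2% of the control level. A normalised count is a read count divided by a size factor that sets the libraries to a common depth. The fibroblast label was checked on 8 marker genes, which were all present, and none of them passed the test described next. Among markers of other cell types, the summed normalised count of the 7 of 8 Schwann cell genes in the table was 259.7 to 832.7 in controls and 73.5 to 122.9 in TGFβ1FKO. Of these genes, *Sox10* and *Foxd3*, regulators of the neural crest and glial lineage, fell. In bulk RNA, fewer cells of a type and less RNA per cell cannot be told apart.

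The question for the 10 genes was whether TGFβ1FKO fibroblasts, with *Tgfb1* at 20.2% of control, carry different amounts of matricellular mRNA. Differences were tested with limma over all genes, and a gene was called at a Benjamini-Hochberg adjusted p under 0.05 together with a log2 fold change beyond 0.6 in either direction. By this rule 0 of the 10 genes were called, against 0.086% of all genes. At an unadjusted limma p under 0.05 there were 3 of 10, against 7.46% of all genes, and all 3 (*Thbs4*, *Mgp* and *Postn*) had the lower mean in TGFβ1FKO, a direction that held with this p for 3.87% of all genes. The edgeR quasi-likelihood test called 0 of 10, against 0.146% of all genes. DESeq2 tested against a fold change of 0 called 2, *Thbs4* and *Mgp*, against 0.371% of all genes. DESeq2 tested against the fold change threshold itself called 0, against 0.0993%. In edgeR and in DESeq2 against 0, *Thbs1* also had an unadjusted p under 0.05, with the higher mean in TGFβ1FKO.

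The groups did not overlap for *Thbs4* and *Mgp*, 2 of 10 genes, against 3.79% of all genes. Both were lower in TGFβ1FKO, and non-overlap in this direction held for 2.1% of all genes. Each of the 10 genes had at least 10 reads in every library. TGFβ1FKO means were below control means for 7 genes and above for 3. The median log2 fold change of the 10 genes was -0.12, beside 0.003 over all genes.

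**Figure D1:**
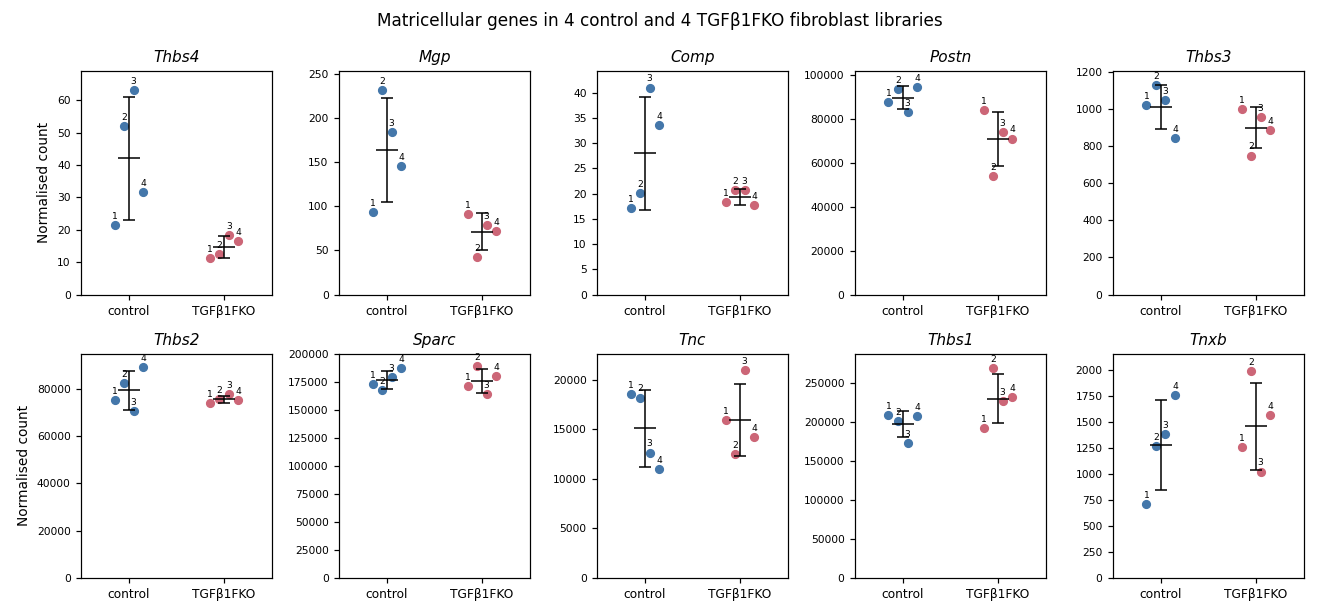
Normalised count of each of the 10 genes (vertical axes, linear, starting at 0) in the control and TGFβ1FKO libraries. Points are libraries with their replicate number, long bars are means and whiskers are SD (n = 4). Only *Thbs4* and *Mgp* have every TGFβ1FKO library below every control library. The margins are 18.3 against 21.5 for *Thbs4* and 91.2 against 92.9 for *Mgp*.

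*Thbs4* encodes thrombospondin 4, a pentameric thrombospondin known from tendon and muscle. The gene lies at chr13:92751590-92794818 on the minus strand (GRCm38, ENSMUSG00000021702) and was rare in these cultures. Control libraries 1 to 4 held 21.5, 52.1, 63.2 and 31.6 normalised counts, and TGFβ1FKO libraries 1 to 4 held 11.1, 12.4, 18.3 and 16.6. All TGFβ1FKO libraries were below the lowest control, and the controls differed more among themselves than the TGFβ1FKO libraries did. The mean was 42.1 ± 19.0 in controls and 14.6 ± 3.37 in TGFβ1FKO (SD, n = 4 each), or 34.7% of control. This was a log2 fold change of -1.37 ± 0.33 (SE), with a 95% interval from -2.09 to -0.66. Its limma p was 0.00123 before and 0.282 after adjustment over all genes, and the two-sided exact permutation test gave p = 0.0286, the smallest value that 4 against 4 libraries allow. DESeq2 against 0 gave a log2 fold change of -1.51 and an adjusted p of 0.0232, so the call depended on the test. The values rested on 25, 49, 57 and 32 reads in controls and 11, 12, 22 and 15 reads in TGFβ1FKO. Counting error alone puts the 95% Poisson interval of 11 reads at 5.49 to 19.7. For the libraries nearest each other, the intervals were 13.8 to 33.3 reads in TGFβ1FKO 3 and 16.2 to 36.9 in control 1, which overlap.

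*Mgp* encodes matrix Gla protein, an inhibitor of calcification that needs vitamin K-dependent carboxylation. It lies at chr6:136872435-136875823 on the minus strand (GRCm38, ENSMUSG00000030218). Its normalised count was 92.9, 231.6, 184.1 and 145.2 in control libraries 1 to 4 and 91.2, 42.5, 78.9 and 72.0 in TGFβ1FKO libraries 1 to 4. Control library 1 and TGFβ1FKO library 1 were nearly level, and the other 3 libraries of each group were well separated. The mean was 163.4 ± 58.8 in controls and 71.1 ± 20.7 in TGFβ1FKO (SD, n = 4 each), or 43.5% of control. On the log2 scale the difference was -1.16 ± 0.28 (SE), with a 95% interval from -1.76 to -0.57. Limma gave p = 0.00108 before and 0.260 after adjustment, and the two-sided exact permutation p was 0.0286. With DESeq2 against 0 the log2 fold change was -1.19 and the adjusted p 0.00352, so this call depended on the test as well.

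Cell type markers were set beside *Thbs4* and *Mgp*, because both genes are also known from cells other than dermal fibroblasts. The Schwann cell sum given above did not overlap between the groups, as for these genes. Of the 7 markers 6 had no overlap, against 3.79% of all genes. The summed count of 6 tenocyte markers was 14040 to 17161 in controls and 15504 to 18345 in TGFβ1FKO. Most of it came from *Egr1* and *Fmod*, at control means of 8138 and 5942 normalised counts, beside 106 for *Scx*. TGFβ1FKO means were higher for 5 of the 6 and lower for 1. *Fmod*, 1 of 6 against 7.46% of all genes, had an unadjusted limma p under 0.05 (0.0350), with the higher mean in TGFβ1FKO. Of 7 chondrocyte markers 3 were in the table, with sums of 845.4 to 1016 and 663.8 to 1152. *Sox9* made up nearly all of these sums, at a control mean of 933. The defining genes *Acan*, *Col9a1*, *Hapln1* and *Cnmd* had no row. Of 7 skeletal muscle markers 2 were in the table, with sums of 566.9 to 976.4 in controls and 700.1 to 930.5 in TGFβ1FKO. *Acta1* made up most of these sums, at a control mean of 663. *Myod1*, *Myf5*, *Pax7*, *Myog* and *Ckm* had no row. The 9 of 10 smooth muscle and pericyte markers in the table summed to 32772 to 40585 in controls and 37879 to 46138 in TGFβ1FKO. Most of each sum was *Acta2*, at a control mean of 34200. TGFβ1FKO means were higher for 6 of the 9 and lower for 3 (*Des*, *Mcam* and *Abcc9*). *Acta2*, *Cnn1* and *Myh11* had an unadjusted limma p under 0.05, 3 of 9 against 7.46% of all genes, each with the higher mean in TGFβ1FKO. Limma called 0 of these 9, and edgeR and DESeq2 against 0 each called 1, *Myh11*, whose groups did not overlap (446 ± 36.6 normalised counts in controls and 740 ± 150 in TGFβ1FKO, SD, n = 4). All 8 endothelial markers had a lower mean in TGFβ1FKO, and limma, edgeR and DESeq2 against 0 called 0 of them. An unadjusted limma p under 0.05 was found for 1 of the 8, against 7.46% of all genes. Their sum was 552.1 to 861.7 in controls and 554.0 to 594.4 in TGFβ1FKO. The part of these cell types in the *Thbs4* and *Mgp* values was not tested.

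*Thbs4* and *Postn*, the members with an unadjusted limma p under 0.05 that had an entry in the RefSeq promoter table, are shown with their promoters, and *Thbs3* is added as a thrombospondin of the same pentameric class whose unadjusted p was above it. Each sequence is the 250 bases before the RefSeq start on GRCm38.p6, written 5′ to 3′ on the gene's strand. *Thbs4* lies at chr13:92794819-92795068 on the minus strand, *Thbs3* at chr3:89214930-89215179 on the plus strand and *Postn* at chr3:54360857-54361106 on the plus strand. Capitals mark CAGAC or its complement GTCTG (the Smad box), GGGCGG or CCGCCC (the GC box) and TATAAA (the TATA box).
Thbs4: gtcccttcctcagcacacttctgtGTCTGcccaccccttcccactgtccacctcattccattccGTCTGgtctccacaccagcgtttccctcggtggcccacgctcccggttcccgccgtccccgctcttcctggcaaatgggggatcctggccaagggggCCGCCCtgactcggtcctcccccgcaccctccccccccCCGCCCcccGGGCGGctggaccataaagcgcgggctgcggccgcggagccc
Thbs3: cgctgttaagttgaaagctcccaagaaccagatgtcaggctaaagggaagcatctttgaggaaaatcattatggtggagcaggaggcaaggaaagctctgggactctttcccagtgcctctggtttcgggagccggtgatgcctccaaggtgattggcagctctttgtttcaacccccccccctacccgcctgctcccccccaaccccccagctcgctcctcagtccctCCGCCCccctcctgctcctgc
Postn: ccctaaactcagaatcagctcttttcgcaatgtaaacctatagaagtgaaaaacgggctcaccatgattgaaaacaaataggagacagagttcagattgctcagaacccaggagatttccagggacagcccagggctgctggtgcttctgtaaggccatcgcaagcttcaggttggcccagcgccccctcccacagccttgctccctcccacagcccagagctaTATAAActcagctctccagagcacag

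The *Thbs4* window was 70.8% G or C, with 2 Smad boxes starting 226 and 186 bases before the start and 3 GC boxes at 89, 51 and 42 bases. The *Thbs3* window was 58.8% G or C with 1 GC box 21 bases before the start, and the *Postn* window was 52% G or C with a TATA box 26 bases before it. Among the 7 members with an entry, the Smad box letters occurred in 4 (*Thbs2*, *Thbs4*, *Tnxb* and *Sparc*), the TATA box in 3 (*Thbs2*, *Postn* and *Tnc*), the GC box in 3 (*Thbs3*, *Thbs4* and *Tnc*) and the AP-1 site TGANTCA in 1 (*Tnxb*). On either strand, the same letters were found in 42.2%, 12.4%, 32.7% and 6.75% of all 32851 windows of this length. These matches describe the letters of the windows and no binding was measured. The RefSeq start used for the *Sparc* window lay 3103 bases from the start of the gene in GENCODE. *Thbs1*, *Comp* and *Mgp* had no entry.

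*Comp* encodes cartilage oligomeric matrix protein, the fifth thrombospondin and a binder of fibrillar collagen. It was as rare as *Thbs4*. The control libraries held 17.2, 20.2, 41.0 and 33.6 normalised counts and the TGFβ1FKO libraries 18.2, 20.7, 20.8 and 17.7. The 4 TGFβ1FKO values lay close together and inside the control range. The log2 fold change was -0.43 with a 95% interval from -1.06 to 0.20 (limma adjusted p = 0.761), so a change past the threshold of -0.6 was neither shown nor left out at this depth.

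*Postn* encodes periostin, a fasciclin-domain protein that binds integrins and collagen and is known as a TGFβ target. It lies at chr3:54361109-54391037 on the plus strand (GRCm38, ENSMUSG00000027750) and was abundant in every library. Controls held 87640, 93556, 83086 and 94413 normalised counts, and TGFβ1FKO held 84102, 54087, 74104 and 71049. TGFβ1FKO library 1 lay above control library 3, and the other 3 TGFβ1FKO libraries were below all controls. The mean was 89674 ± 5325 in controls and 70836 ± 12480 in TGFβ1FKO (SD, n = 4 each), or 79.0% of control. The fold change on the log2 scale was -0.36 ± 0.12 (SE), with a 95% interval from -0.61 to -0.10. Limma gave p = 0.00966 before and 0.536 after adjustment, and the exact permutation p was 0.0571 (two-sided), so the difference did not pass the test.

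*Thbs1* and *Thbs2* encode the trimeric thrombospondins, which bind CD36 and CD47 and restrain vessel growth. *Thbs1* ranked 4 among all genes by mean count. Its libraries held 208522, 201429, 172912 and 207887 normalised counts in controls and 192180, 268999, 227033 and 232059 in TGFβ1FKO. TGFβ1FKO library 1 lay within the control range and the other 3 were above it. The log2 fold change was 0.21 with a 95% interval from -0.04 to 0.47 (limma adjusted p = 0.708). Before adjustment p was 0.0971 with limma, 0.0453 with edgeR and 0.0245 with DESeq2 against 0. The adjusted p was 0.664 with edgeR and 0.629 with DESeq2 against 0. *Thbs2* held 75353, 82294, 70453 and 89299 in controls and 74010, 75562, 77654 and 75101 in TGFβ1FKO, where the SD of 1527 was smaller than the 8222 of the controls. Its log2 fold change was -0.06 with an interval from -0.25 to 0.12 (limma adjusted p = 0.892).

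*Thbs3*, the remaining pentameric thrombospondin, held 1021, 1128, 1046 and 845.4 normalised counts in controls and 1001, 748.8, 954.1 and 887.5 in TGFβ1FKO, and the groups overlapped. The log2 fold change was -0.17 with an interval from -0.39 to 0.05 (limma adjusted p = 0.725). The libraries do not keep strand, and 6.59% of the *Thbs3* exon length overlaps *Mtx1* on the opposite strand. The same holds for 3.42% of *Thbs1* with *Gm29233* and 2.26% of *Tnc* with *8030451A03Rik*. Reads from these stretches cannot be assigned to either gene.

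*Sparc* encodes the collagen-binding protein osteonectin. Its libraries were close together in both groups. Controls held 173436, 167830, 179640 and 187461 normalised counts and TGFβ1FKO held 171324, 189552, 164572 and 180316. The coefficients of variation were 4.76% and 6.16%. Its log2 fold change was -0.01 ± 0.09 (SE), and the 95% interval from -0.20 to 0.19 left out the threshold of 0.6 in both directions (limma adjusted p = 0.994).

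The tenascins are large hexameric or trimeric proteins, of which tenascin C (*Tnc*) is known from wounds and tenascin X (*Tnxb*) from collagen fibril spacing in resting dermis. *Tnc* held 18596, 18217, 12650 and 10950 normalised counts in controls and 15935, 12532, 21031 and 14260 in TGFβ1FKO. The spread within each group exceeded the difference between the means, and the log2 fold change was 0.09 with a 95% interval from -0.30 to 0.47 (limma adjusted p = 0.936). *Tnxb* held 707.2, 1265, 1379 and 1759 in controls and 1256, 1987, 1022 and 1563 in TGFβ1FKO. Control library 1 was the lowest of the 8, and the log2 fold change was 0.22 with an interval from -0.31 to 0.75 (limma adjusted p = 0.870), which does not leave out the threshold.

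**Figure D2:**
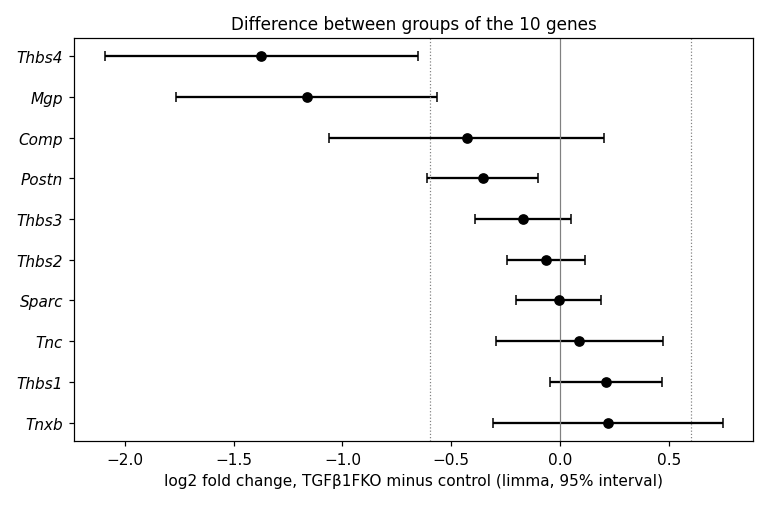
Log2 fold change of each gene, TGFβ1FKO minus control (horizontal axis), with its 95% limma interval (n = 4 each). Dotted lines mark the threshold of 0.6 in both directions. The intervals of *Thbs4*, *Mgp* and *Postn* lie below 0, and those of the other 7 genes include it.

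TGFβ1FKO library 2 held the highest *Thbs1* and *Tnxb* and the lowest *Postn*, *Thbs3* and *Mgp* values of its group. TGFβ1FKO library 1 lay nearest to the controls for *Thbs1*, *Postn* and *Mgp*. However, it held the lowest *Thbs4* value of its group, 11.1, which is farthest from the controls. Residual *Tgfb1* was highest in TGFβ1FKO library 1 at 326.4 normalised counts and lowest in library 3 at 228.4, beside 259.9 in library 2. A link between residual *Tgfb1* and these genes was not tested. Without TGFβ1FKO library 1, *Thbs1* and *Postn* no longer overlapped between the groups. This follows from leaving out the TGFβ1FKO library nearest the controls and is no further evidence of a difference.

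To set the 10 genes beside each other, reads were divided by exon length in kilobases and expressed per 1000000 reads of the library. On this scale the control level was 2451 for *Sparc* and 1706 for *Thbs1*. Then came *Thbs2* at 593 and *Postn* at 540, whose libraries overlapped and whose order turned when the length of the principal transcript was used in place of all exons (705 and 1474). *Tnc* stood at 102, *Thbs3* at 11, *Mgp* at 7.21 and *Tnxb* at 5.47, where *Mgp* overlapped both of its neighbours. With the principal transcript, *Mgp* stood at 13.9 and no longer overlapped *Tnxb*, and *Sparc* was at 4037 and *Thbs3* at 16.6. *Thbs4* at 0.671 and *Comp* at 0.495 were lowest, and also overlapped. In TGFβ1FKO the levels were 2410 for *Sparc*, 1959 for *Thbs1*, 559 for *Thbs2*, 422 for *Postn* and 106 for *Tnc*. The lower ones were 9.64 for *Thbs3*, 6.17 for *Tnxb*, 3.11 for *Mgp*, 0.338 for *Comp* and 0.230 for *Thbs4*.

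**Figure D3:**
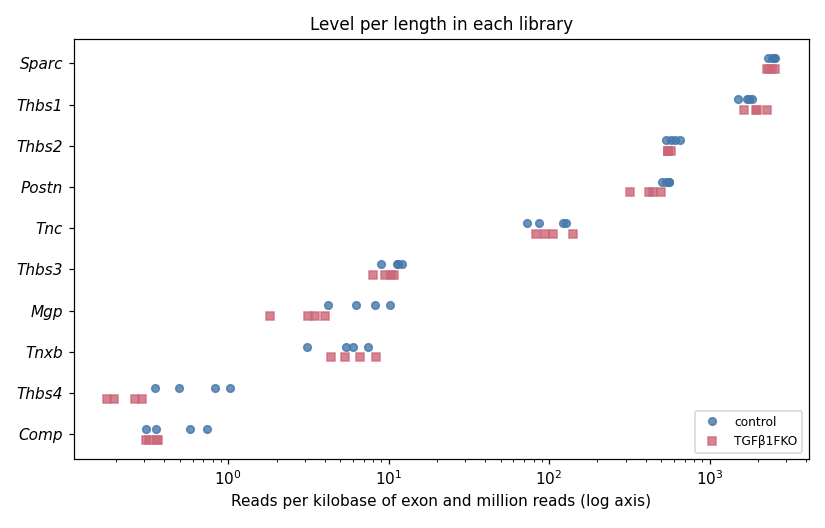
Reads per kilobase of exon and 1000000 reads (horizontal log axis) for the 10 genes, ordered by control level. Circles are control libraries and squares TGFβ1FKO libraries. Levels run from 0.495 for *Comp* to 2451 for *Sparc* in the control means.

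The 10 genes took 2.77% to 3.05% of all reads in controls and 2.80% to 3.09% in TGFβ1FKO. *Thbs1*, *Sparc*, *Postn* and *Thbs2* supplied 96.3% to 97.7% of those reads in controls and 95.9% to 97.5% in TGFβ1FKO. The members that differed most in fold therefore contributed few of the matricellular transcripts. *Thbs1* took 33.2% to 36.9% of the members' reads in controls and 35.6% to 44.6% in TGFβ1FKO, and *Postn* 15.5% to 16.5% and 8.96% to 15.6%.

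Genes around the members were followed by role, and 35 of the 40 listed were in the table. Limma, edgeR and DESeq2 against 0 each called 0 of the 35, and 0 had an unadjusted limma p under 0.05, against 7.46% of all genes. Their log2 fold changes ran from -0.82 to 0.50 with a median of 0.03. Among SPARC relatives (6 of 7 in the table, median 0.01), the follistatin-like *Fstl1* averaged 58513 ± 3482 normalised counts in controls and 57926 ± 3618 in TGFβ1FKO, and *Smoc2* 2685 ± 688 and 2755 ± 551 (SD, n = 4). Among tenascin and fasciclin relatives (4 of 5, median -0.23), the periostin paralogue *Tgfbi* averaged 4195 ± 365 and 3662 ± 678 and *Tnn* 216 ± 73.3 and 187 ± 76.5.

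Of the other secreted matricellular proteins (5 of 6, median -0.02), *Ecm1* averaged 9659 ± 877 in controls and 9696 ± 539 in TGFβ1FKO, and osteopontin (*Spp1*) 4494 ± 504 and 4217 ± 713 normalised counts (SD, n = 4). Of the genes for Gla proteins and their carboxylation (5 of 6, median 0.03), *Gas6* averaged 32582 ± 6401 and 34295 ± 4658. *Ggcx*, the carboxylase that modifies Gla proteins such as that of *Mgp*, averaged 1481 ± 60.0 and 1479 ± 34.5, with a 95% interval of the log2 fold change from -0.11 to 0.11. Of the receptors (15 of 16, median 0.08), the thrombospondin-binding *Calr* averaged 18652 ± 1368 and 19757 ± 957 and the integrin chain *Itgb1* 22830 ± 1015 and 24162 ± 1306.

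The CCN proteins, the matricellular family next to these, had 5 of 6 genes in the table and 0 called by limma, edgeR or DESeq2 against 0, with a median log2 fold change of -0.07. *Ccn3* (listed as *Nov*) was the 1 gene of the 5 with an unadjusted limma p under 0.05, against 7.46% of all genes. *Ccn3* averaged 2207 ± 688 normalised counts in controls and 1614 ± 256 in TGFβ1FKO (SD). Its limma p was 0.0395 before and 0.655 after adjustment. *Ccn1* averaged 11820 ± 741 and 12021 ± 533, and *Ccn5* 5388 ± 1166 and 5075 ± 606.

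**Figure D4:**
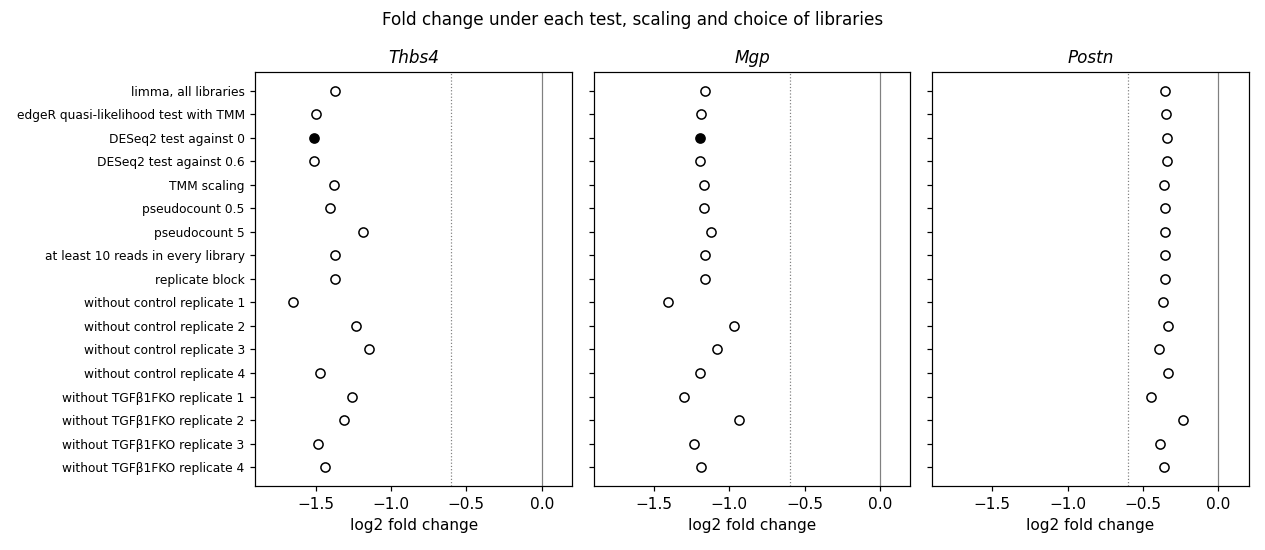
Log2 fold change (horizontal axis) of *Thbs4*, *Mgp* and *Postn* under each test, scaling, pseudocount and choice of libraries (rows). Filled points are calls and the dotted line is a log2 fold change of -0.6. All points of *Thbs4* and *Mgp* lie beyond the threshold, and only DESeq2 against 0 called them.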

How the data were processed

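Per the labels, RNA was poly(A)-selected and sequenced as non-directional paired-end libraries. The submitters' processing notes name HISAT2 2.0.5, featureCounts 1.5.0-p3, DESeq2 1.42.0 and the builds GRCm38 and mm10. The authors deposited 1 table of 15111 genes with a signal per library, the count divided by a size factor plus 0.5. The authors' own comparison was also deposited, as log2 fold changes, a standard error and a Wald score, and p-values, and was not used. After subtracting 0.5, 100% of values in each library were whole reads within 0.01, and the count tests ran on those reads.

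The main test was limma 3.58.1 (mean-variance trend) on log2(normalised count + 1) over all genes, which understates changes of low genes. It called 13 genes of all, edgeR 4.0.16 called 22 and DESeq2 1.42.0 against 0 called 56. Alternatives were edgeR, DESeq2, TMM scaling, pseudocounts of 0.5 and 5, at least 10 reads in every library (12946 genes), a replicate block, each library left out in turn, and, chosen after seeing the data, the principal transcript's length. The fits were tested on simulated data. Gene lengths came from GENCODE M21 (15105 genes matched) and promoters from RefSeq. Every member, related genes with an unadjusted p under 0.05 or without overlap, and the 2 highest per length in each role are named. Of the called cell type markers, not every one is reported by name here. The members and lists were chosen with earlier results of these data known. Poisson intervals cover counting error only.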

Additional observations from a re-analysis of the deposited data

Results flagged for a closer look

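Among 42 groups of 4 libraries tested for a library far from the other 3 (Dixon's test), 2 stood out, and chance flags about 1 in 20 groups, or 2.1 here. None was a value of the 10 genes. The summed endothelial markers reached 594.4 normalised counts in TGFβ1FKO library 2, against 554.0 to 560.5 in the other 3. The summed keratinocyte markers reached 148.1 normalised counts in control library 4, against 103.1 to 108.4 in the other 3.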

How the results depend on the processing

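Under 16 alternatives, *Thbs4*, *Mgp*, *Postn*, *Comp*, *Thbs1*, *Thbs2* and *Thbs3* kept the direction of their log2 fold change. The count of members called was 2 with DESeq2 against 0 and 0 in the other 15. Adjusted p in the tests against 0 ran from 0.0232 to 0.711 for *Thbs4* and from 0.00352 to 0.695 for *Mgp*. For *Postn* it ran from 0.190 to 0.889. The lowest values came from DESeq2 against 0 and the highest from limma with 1 library left out. DESeq2 against 0.6 asked a different question and is left out of these ranges. With 1 library left out, log2 fold changes ran from -1.65 to -1.14 for *Thbs4*, -1.41 to -0.94 for *Mgp* and -0.44 to -0.23 for *Postn* (-0.23 without TGFβ1FKO 2). Values called under no alternative moved by over 1.5 times for *Postn*, *Comp*, *Thbs1*, *Thbs3* and *Thbs2*. *Comp* ran from -0.63 to -0.22 (lowest in size without control 3) and *Thbs1* from 0.13 to 0.30 (0.13 without TGFβ1FKO 2). *Thbs3* ran from -0.25 to -0.09 (-0.09 without TGFβ1FKO 2) and *Thbs2* from -0.12 to -0.006 (-0.006 without control 4). The members' median ran from -0.15 to -0.08, with -0.08 without control 2 or TGFβ1FKO 2. The sign turned for *Sparc* (-0.041 to 0.027, without control 3, control 4, TGFβ1FKO 1 or TGFβ1FKO 3), *Tnc* (-0.054 to 0.20, without control 4 or TGFβ1FKO 3) and *Tnxb* (-0.040 to 0.40, without control 1), all within their intervals. Members without overlap numbered 2 to 4. There were 4 when TGFβ1FKO 1 was left out (*Thbs1* and *Postn* added), 3 without control 3 (*Postn*) and 3 without control 4 (*Thbs3*). Fewer libraries make non-overlap easier to reach, and no share over all genes was computed for these settings. The higher counts therefore cannot be read as more members that differ.

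Whether the replicate numbers pair the libraries was not settled by these values. Same-numbered libraries correlated between -0.134 and 0.159 in their deviations, with 2 of 4 above 0.1. Differently numbered libraries of the 2 groups correlated between -0.319 and 0.387. With the replicate block, 0 members were called and 3 had an unadjusted p under 0.05, and limma's adjusted p was 0.117 for *Thbs4*, 0.218 for *Mgp* and 0.441 for *Postn*. With the principal transcript's length, the control level per length was higher for every member except *Tnxb*, whose length was the same. *Postn* went from 540 to 1474, *Thbs2* from 593 to 705 and *Comp* from 0.495 to 0.607. *Thbs4* and *Comp* are limited by depth, at 11 to 57 reads per library for *Thbs4*.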
